A study of Mus musculus with 12 samples.

Results

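The 38 genes described here encode hydrolases, lipid-handling proteins and membrane proteins of the lysosome, together with the granulin precursor Grn and the transcription factor gene Tfeb. They were chosen by symbol, with earlier results of these data known. Each symbol had 1 row among the 55487 rows of the deposited table. All 38 passed the filter on low values that 11344 genes passed. By role they fell into 12 peptidases, 10 glycosidases, 2 sulfatases, 7 lipid hydrolases and lipid-handling proteins, 5 membrane proteins, Grn and Tfeb. Their transcripts were measured by RNA-seq in livers from Balb/c mice, wild type and aged 6 weeks, in 6 samples with severe acute pancreatitis (SAP 10 to SAP 15) and 6 control samples (control 3 to control 8). Per the labels, SAP samples had received caerulein, a cholecystokinin analogue that overstimulates the exocrine pancreas. Nothing in the labels ties each sample to its own animal, and p-values therefore cover only the spread seen among these 12 samples. The series' design text speaks of a pair of mouse models, and the sources used here do not say whether all SAP samples came from 1 of them.

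Lysosomes are acidic organelles in which proteins, glycans and lipids delivered by endocytosis, phagocytosis and autophagy are broken down. Their soluble hydrolases are made in the endoplasmic reticulum, tagged with mannose 6-phosphate and sorted to the organelle, while heavily glycosylated membrane proteins such as LAMP1 and LAMP2 line it. Many lysosomal genes carry a palindromic element near their start site that is bound by TFEB and its relatives TFE3 and MITF. In liver, hepatocytes and the resident macrophages (Kupffer cells) are both rich in lysosomes.

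Values are TPM, transcript abundance per length as a share of a common total, and carry no sequencing depth, so the depth behind each value is unknown. Differences are SAP minus control on the log2(TPM + 1) scale with the standard error (SE), and a gene was called higher or lower when its limma adjusted p was under 0.05 (Benjamini-Hochberg over all 11344 genes). At least 1 TPM was reached by 10810 to 11718 genes in SAP libraries and 11223 to 11527 in control libraries. A list of 30 acute-phase genes took 22.1 to 36.4% of all TPM in SAP libraries and 3.24 to 3.79% in control libraries, with the highest share in SAP 14. Rescaling the values without these genes moved the median difference of all genes from -0.03 to 0.32. Each rescaled difference below is therefore to be read against 0.32 as well as against 0. In bulk liver, fewer cells of a type and less RNA per cell cannot be told apart.

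Of the 38 lysosomal genes, 7 were higher in SAP, 15 were lower and 16 did not pass the threshold. Across all genes tested, 19.5% were higher and 25.0% were lower, 44.5% in either direction, so the 7 higher members (18.4%) were near the background and the 15 lower ones (39.5%) were above it. The size of that surplus depended on the scale. With values rescaled after leaving out the acute-phase genes, 23 members were higher (60.5%) and 5 lower (13.2%), against 55.3% and 10.7% of all genes. With scaling factors like those of TMM, 12 were higher (31.6%) and 14 lower (36.8%), against 23.4% and 24.6% of all genes. Under quantile normalization, 16 were higher (42.1%) and 10 lower (26.3%), against 26.2% and 22.7%. The median member difference was -0.09, against -0.03 for all genes, and the median absolute difference was 0.27, against 0.26. By size, 30 of 38 members (78.9%) differed by less than 0.5 in absolute log2 value and 3 (7.89%), Cd63, Lgmn and Gm2a, by at least 1, close to the 74.6% and 8.28% of all genes. The SAP and control ranges did not overlap for 11 members, of which Cd63, Lgmn and Smpd1 were higher and Ctsb, Ctsf, Man2b1, Fuca1, Hexa, Gm2a, Lamp1 and Lamp2 lower; among all genes 10.5% were separated upward and 15.1% downward, 25.6% in all.

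**Figure D1:**
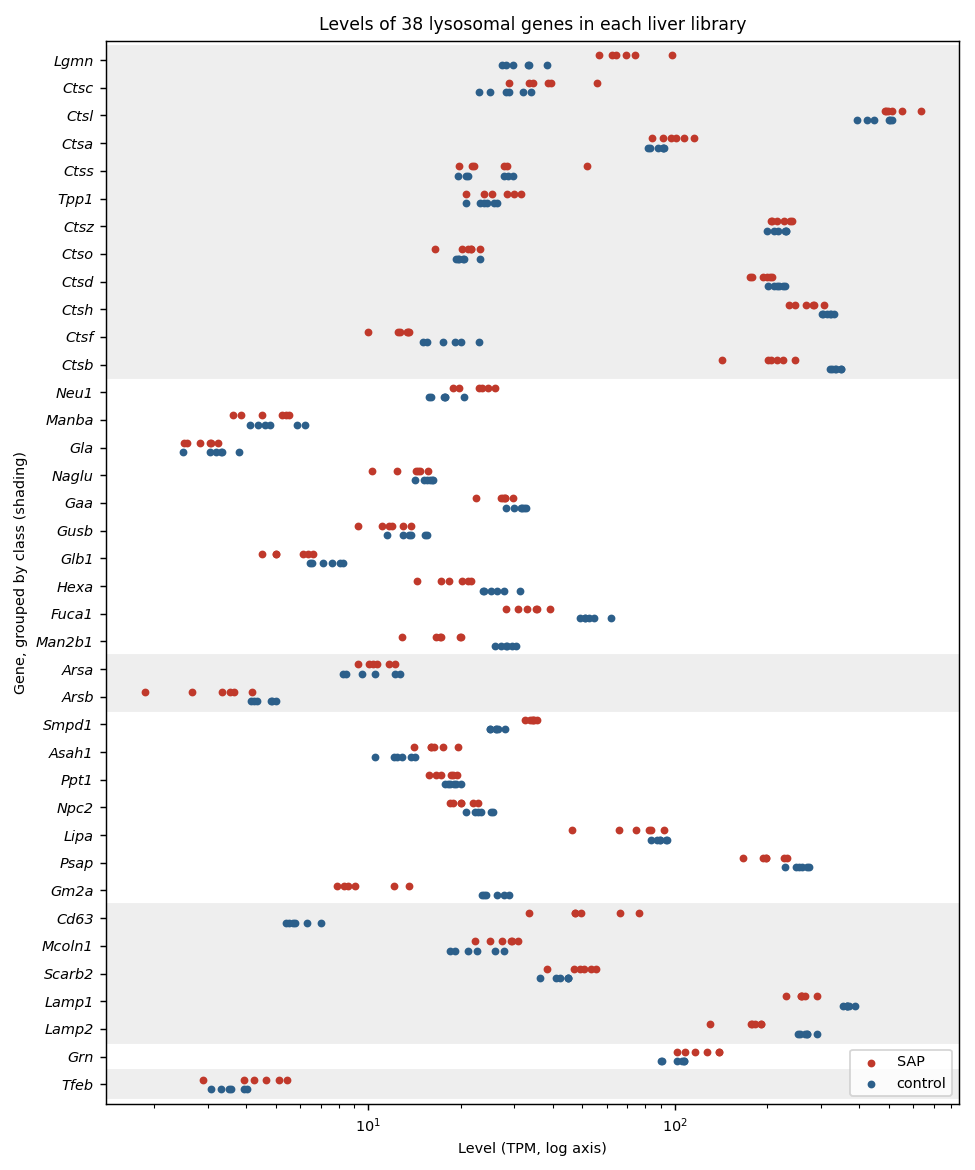
Level of each of the 38 lysosomal genes (TPM, log axis) in the 6 SAP libraries (red, upper row of each gene) and the 6 control libraries (blue, lower row), grouped by role. Ctsl was the most abundant member in both groups, at 487 to 635 TPM in SAP and 393 to 512 TPM in control libraries, and Cd63 showed the widest separation.

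**Figure D2:**
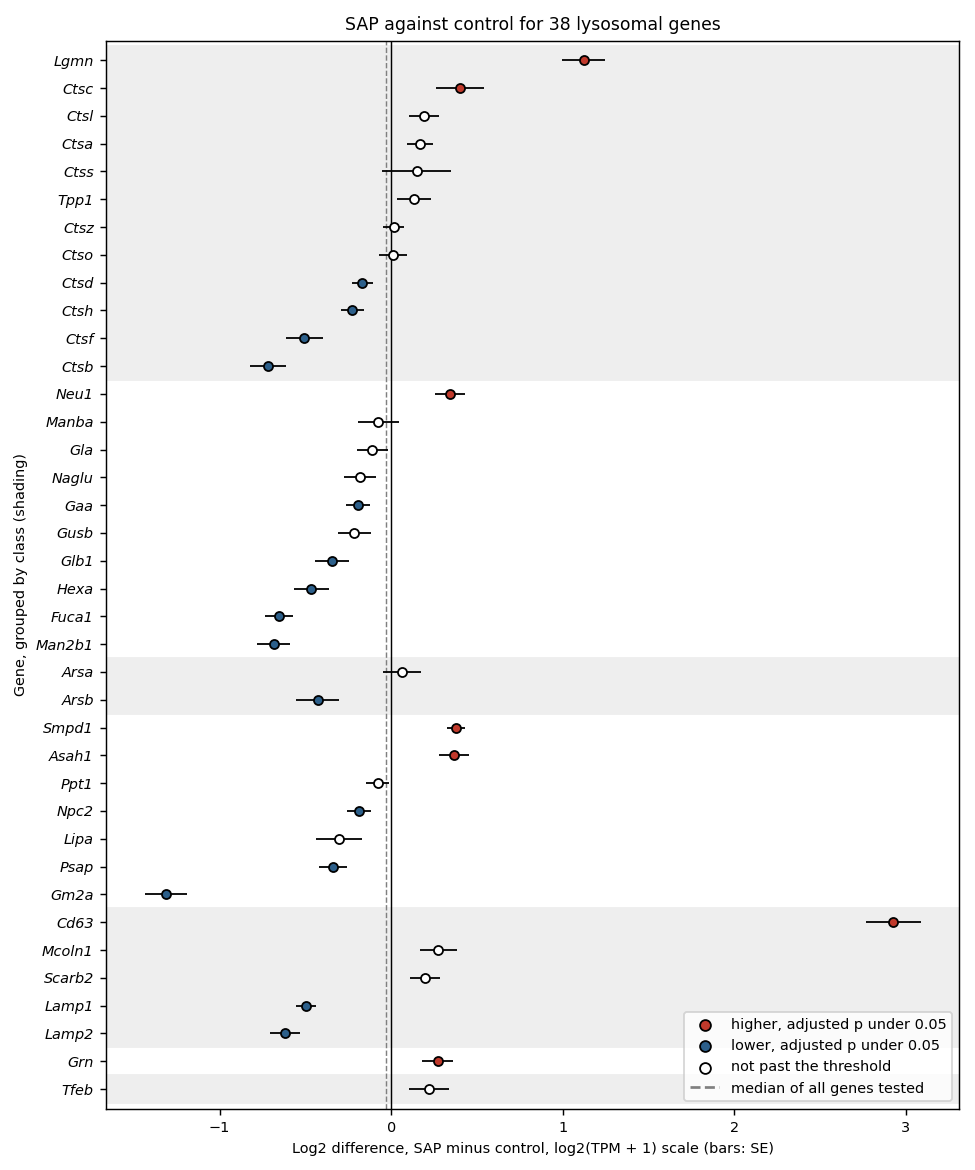
Log2 difference, SAP minus control, of the 38 genes (points) with its SE (bars), coloured by call, beside the median of all genes tested (dashed line). Cd63 and Lgmn stood to the right, Gm2a to the left, and 30 of the 38 lay within 0.5 of zero.

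The regulator itself was weakly expressed. Tfeb, which encodes a master transcription factor of lysosomal genes, stood at 2.89 (lowest), 4.44 (median) and 5.41 TPM (highest) in SAP, against 3.06, 3.53 and 4.03 TPM in control. Its difference of 0.22 ± 0.12 (SE) did not pass the threshold (limma adjusted p = 0.143), and its ranges overlapped. Without SAP 14, the lowest SAP library for this gene, the difference was 0.31 and passed it (limma adjusted p = 0.0154). It also passed under the 3 other scalings described further on, at 0.22 to 0.55. Among 12 tested genes of nutrient sensing and lysosomal gene regulation, 1 was higher, Tfe3, and 4 were lower; Tfe3 and Lamtor1 are named to complete these counts, with their values already known. Flcn, which encodes folliculin, a regulator of TFEB and TFE3 phosphorylation, differed by -0.85 ± 0.10 (SE), and the Ragulator subunit gene Lamtor4 by -0.61 ± 0.07 (SE). Lamtor1, another Ragulator subunit gene, differed by -0.25 ± 0.07 (SE) as deposited and was called higher, at 0.15, after rescaling without acute-phase genes (limma adjusted p = 0.0399). Rptor, the raptor subunit gene of mTORC1, differed by -0.47 ± 0.12 (SE), and its call was lost after that rescaling (-0.09), among the libraries high in the X-inactivation RNA Xist (-0.27) and with that split of the libraries as a term (-0.35). The difference of Tfe3 was 0.26 ± 0.09 (SE; limma adjusted p = 0.0290), and its call was lost when any of SAP 10, SAP 14, SAP 15, control 3, control 4 or control 5 was left out, at 0.23 to 0.26, among the libraries high in Xist (0.24) and with the Xist term (0.28).

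Promoter windows of 300 bases from RefSeq (GRCm38.p6) were found for 35 of the 38 genes; Asah1, Ctsb and Ctsh had none. The core palindrome CACGTG was present in 12 of the 35 (34.3%), against 8.09% of 27025 genes with a window. Its extended form TCACGTGA, which contains that core, was present in 4 of the 35 (11.4%), against 1.12% of genes. Both motifs read the same on either strand. The stretches that hold the extended form are shown because this is the kind of element TFEB is known to bind, and that of Lgmn, chosen after its values were seen, because it was the only higher member with the core. Capitals mark the motifs, each sequence is 60 bases 5′ to 3′ on the gene's strand, and positions are chr2:164833742-164833801 (plus strand) for Ctsa, chr7:142387893-142387952 (minus) for Ctsd, chrX:134601184-134601243 (minus) for Gla, chr8:3500447-3500506 (plus) for Mcoln1 and chr12:102439109-102439168 (minus) for Lgmn.
Ctsa: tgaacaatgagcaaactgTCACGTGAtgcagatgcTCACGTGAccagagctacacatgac
Ctsd: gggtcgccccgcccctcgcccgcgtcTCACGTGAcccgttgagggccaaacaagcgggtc
Gla: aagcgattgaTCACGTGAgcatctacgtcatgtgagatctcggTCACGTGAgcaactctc
Mcoln1: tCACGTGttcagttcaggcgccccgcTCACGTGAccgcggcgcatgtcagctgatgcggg
Lgmn: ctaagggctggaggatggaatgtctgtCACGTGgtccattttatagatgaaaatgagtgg

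The genes with these letters did not move as a block. Of the 4 with the extended form, Ctsd was lower, a call that turned under other scalings, while Ctsa (0.17 ± 0.07 SE), Gla (-0.11 ± 0.09 SE) and Mcoln1 (0.27 ± 0.11 SE) did not pass the threshold. Of the 12 with the core, 1 was higher, 5 were lower and 6 did not pass, with a median difference of -0.14. Of the 23 whose window lacked it, 5 were higher, 8 lower and 10 not past the threshold, with a median of -0.07. A matching run of letters describes the window and says nothing of binding.

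Among the 12 peptidases, 2 were higher (Lgmn and Ctsc), 4 were lower (Ctsb, Ctsf, Ctsh and Ctsd) and 6 did not pass the threshold, around a median of 0.07. Lgmn, at 12:102394084-102439813 on the minus strand of GRCm38, encodes legumain, an asparaginyl endopeptidase that also processes cathepsins. It stood at 56.4, 66.8 and 98.3 TPM in SAP (lowest, median, highest), against 27.3, 31.4 and 38.4 TPM in control. The SAP mean was 2.24 times the control mean, a log2 difference of 1.12 ± 0.12 (SE; limma adjusted p = 9.63e-06). Every SAP library lay above every control library, and SAP 10 was the highest.

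Ctsb encodes cathepsin B, a cysteine protease known in the pancreas for activating trypsinogen; here it was measured in liver, at 14:63122462-63145923 on the plus strand. Its levels were 143, 211 and 247 TPM in SAP, against 322, 336 and 349 TPM in control. With no overlap between the groups, the difference was -0.72 ± 0.11 (SE; limma adjusted p = 1.09e-04), and it was -0.31 after the rescaling without acute-phase genes. SAP 14 was the lowest library. Ctsf, the cysteine protease cathepsin F, stood at 9.97, 13.0 and 13.6 TPM in SAP, against 15.1, 18.3 and 22.9 TPM in control, a difference of -0.51 ± 0.11 (SE; limma adjusted p = 0.00171). These ranges were also separate, but the rescaled difference of -0.12 did not pass the threshold (limma adjusted p = 0.285).

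The most abundant cathepsin did not follow Ctsb. Ctsl, encoding cathepsin L, stood at 487, 505 and 635 TPM in SAP, against 393, 475 and 512 TPM in control, with overlapping ranges and a difference of 0.19 ± 0.09 (SE; limma adjusted p = 0.0921) that passed the threshold under quantile normalization (0.43) and after the rescaling (0.60). It made up 27.1 to 35.3% of the summed TPM of the 12 peptidases in SAP libraries and 23.4 to 27.7% in control libraries. The cathepsin H gene Ctsh, an aminopeptidase, stood at 235 (lowest), 276 and 306 TPM in SAP, against 303, 317 and 331 TPM in control. Its difference of -0.23 ± 0.07 (SE; limma adjusted p = 0.0144) was 0.15 under quantile normalization and 0.19 after the rescaling, so its direction was set by the scaling. The same held for Ctsd, the aspartic protease cathepsin D, at -0.17 ± 0.06 (SE; limma adjusted p = 0.0340) as deposited, 0.23 under quantile normalization and 0.24 after the rescaling. The call on Ctsd was also lost when any of SAP 11, SAP 13, SAP 14, control 3, control 4, control 6 or control 8 was left out, at -0.17 to -0.14. Ctsd overlaps the same-strand annotated gene Gm49369, which itself read 0.61 to 6.38 TPM.

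Ctsc, encoding the dipeptidyl peptidase that activates granule proteases of immune cells, stood at 28.8, 36.5 and 55.7 TPM in SAP, against 23.0, 28.5 and 33.9 TPM in control. The ranges overlapped and the difference was 0.40 ± 0.14 (SE; limma adjusted p = 0.0322). This call was lost when any of SAP 10, SAP 11, SAP 15, control 6, control 7 or control 8 was left out, with differences of 0.29 to 0.48 over all 12 omissions of 1 library, and it was lost without the filter on low values (limma adjusted p = 0.0740). Ctss, the macrophage-rich cathepsin S, is given for its single high library and was chosen after its values were seen: it read 51.6 TPM in SAP 10 and 19.8 to 28.4 TPM in the other SAP libraries, against 19.7 to 29.7 TPM in control. Its difference was 0.15 ± 0.20 (SE; limma adjusted p = 0.578), and -0.03 without SAP 10. The remaining peptidases did not pass the threshold as deposited: the difference was 0.13 ± 0.10 (SE) for Tpp1, tripeptidyl peptidase 1, 0.02 ± 0.06 (SE) for Ctsz, cathepsin Z, and 0.01 ± 0.08 (SE) for Ctso, cathepsin O. Ctsa, whose product protects beta-galactosidase and neuraminidase, passed it only without SAP 14 among the omissions of 1 library (0.21; limma adjusted p = 0.0172). Both Ctsa and Tpp1 were called higher under the 3 other scalings, at 0.21 to 0.58 for Ctsa and 0.17 to 0.53 for Tpp1.

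The 10 glycosidases, which strip sugars from glycoproteins, glycolipids and glycosaminoglycans, had 1 higher member (Neu1), 5 lower ones (Man2b1, Fuca1, Hexa, Glb1 and Gaa) and 4 that did not pass the threshold, with a median of -0.20 as deposited and 0.18 after the rescaling without acute-phase genes. Fuca1, the alpha-fucosidase gene at 4:135920735-135940311 (plus strand), stood at 28.1, 34.1 and 39.1 TPM in SAP, against 49.3, 51.8 and 62.0 TPM in control. The difference was -0.65 ± 0.08 (SE; limma adjusted p = 3.28e-05). Man2b1, the lysosomal alpha-mannosidase gene at 8:85083270-85098282 (plus strand), stood at 12.9, 17.2 and 20.1 TPM in SAP, against 25.9, 28.2 and 30.3 TPM in control. Its difference was -0.69 ± 0.09 (SE; limma adjusted p = 6.31e-05). Neither gene had overlapping groups, and both stayed lower after the rescaling, at -0.25 for Fuca1 and -0.29 for Man2b1.

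Hexa encodes the alpha subunit of beta-hexosaminidase, which cleaves GM2 ganglioside. Hexa stood at 14.5, 19.3 and 21.6 TPM in SAP, against 23.7, 25.7 and 31.2 TPM in control, again without overlap. Its difference of -0.46 ± 0.10 (SE; limma adjusted p = 0.00210) was -0.07 and not past the threshold after the rescaling (limma adjusted p = 0.498), where the all-gene median was 0.32. In the other direction, Neu1, the sialidase gene, stood at 18.9, 23.2 and 26.0 TPM in SAP, against 15.8, 17.7 and 20.5 TPM in control. Its groups overlapped slightly, and the difference was 0.34 ± 0.09 (SE; limma adjusted p = 0.00688).

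Gaa, the acid alpha-glucosidase that degrades lysosomal glycogen, stood at 22.5, 27.7 and 29.6 TPM in SAP, against 28.2, 31.6 and 32.6 TPM in control; its difference of -0.19 ± 0.07 (SE; limma adjusted p = 0.0390) was 0.21 after the rescaling. It was lost in 7 of the 12 omissions of 1 library, those of SAP 10, SAP 11 and every control but control 5. Glb1, beta-galactosidase, differed by -0.35 ± 0.10 (SE; limma adjusted p = 0.0125), and by 0.01 after the rescaling. Gusb, beta-glucuronidase (-0.21 ± 0.10 SE), Naglu, an N-acetylglucosaminidase of heparan sulfate breakdown (-0.18 ± 0.09 SE), Gla, alpha-galactosidase (-0.11 ± 0.09 SE), and Manba, beta-mannosidase (-0.07 ± 0.12 SE), did not pass the threshold. Gusb passed it without SAP 12 (-0.26; limma adjusted p = 0.0461) and without control 4 (-0.26; limma adjusted p = 0.0480).

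The sulfatases split. Arsb, which removes sulfate from dermatan and chondroitin sulfate, stood at 1.87, 3.44 and 4.16 TPM in SAP, against 4.14, 4.58 and 5.01 TPM in control, a difference of -0.43 ± 0.13 (SE; limma adjusted p = 0.0145) that was -0.11 and not past the threshold after the rescaling. Only its highest SAP library reached the control range. Arsa, which acts on sulfatide, stood at 9.27, 10.5 and 12.2 TPM in SAP, against 8.25, 10.0 and 12.7 TPM in control, with a difference of 0.06 ± 0.11 (SE; limma adjusted p = 0.667).

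Of the 7 lipid hydrolases and lipid-handling proteins, 2 were higher (Smpd1 and Asah1), 3 were lower (Gm2a, Psap and Npc2) and Lipa and Ppt1 did not pass the threshold, with a median of -0.19 as deposited, -0.01 under quantile normalization and 0.21 after the rescaling. Gm2a, at 11:55098115-55113029 on the plus strand, encodes the activator protein that presents GM2 ganglioside to beta-hexosaminidase. It stood at 7.91, 8.83 and 13.6 TPM in SAP, against 23.6, 25.2 and 28.9 TPM in control, so that the control mean was 2.59 times the SAP mean. The difference was -1.31 ± 0.12 (SE; limma adjusted p = 2.54e-06), the largest decrease among the 38 members, and the groups were far apart. Among the members by mean level, Gm2a ranked 33 in SAP and 20 in control.

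Smpd1, at 7:105554360-105558389 on the plus strand, encodes acid sphingomyelinase, which makes ceramide from sphingomyelin. Its SAP levels were tight, at 32.6, 34.3 and 35.5 TPM, against 24.9, 26.2 and 27.9 TPM in control, a difference of 0.38 ± 0.05 (SE; limma adjusted p = 5.84e-05) with no overlap. Asah1, the acid ceramidase gene that acts on the product of Smpd1, stood at 14.1, 16.3 and 19.6 TPM in SAP, against 10.5, 12.7 and 14.2 TPM in control. These ranges met at their edges, and the difference was 0.37 ± 0.09 (SE; limma adjusted p = 0.00402).

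Psap encodes prosaposin, the precursor of the saposins that help sphingolipid hydrolases. It stood at 167, 199 and 233 TPM in SAP, against 229.9, 257 and 275 TPM in control. Its difference of -0.34 ± 0.08 (SE; limma adjusted p = 0.00375) was 0.06 under quantile normalization and 0.07 after the rescaling, neither past the threshold. Lipa, the lysosomal acid lipase gene, stood at 46.2, 78.5 and 92.2 TPM in SAP, against 83.4, 89.5 and 94.5 TPM in control. Only SAP 12 (92.2 TPM) and SAP 15 (83.9 TPM) lay inside the control range, and the other SAP libraries lay below it. The Lipa difference of -0.30 ± 0.13 (SE; limma adjusted p = 0.0818) passed the threshold without SAP 12 (-0.37; limma adjusted p = 0.0332). It also passed with scaling factors like those of TMM (-0.26, limma adjusted p = 0.0273). It did not pass under quantile normalization (-0.04) or after the rescaling (0.10). Npc2, a cholesterol-binding protein gene, differed by -0.19 ± 0.07 (SE; limma adjusted p = 0.0485), a call lost in 9 of the 12 omissions of 1 library (every one but those of SAP 10, SAP 12 and control 7), and by 0.21 after the rescaling. Ppt1, a palmitoyl-protein thioesterase gene, differed by -0.08 ± 0.07 (SE).

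Of the 5 membrane proteins, Cd63 had the largest increase of the 38 genes, Lamp1 and Lamp2 were lower (Lamp1 not past the threshold after the rescaling), and Scarb2 and Mcoln1 did not pass the threshold. The median difference of the 5 was 0.20 as deposited, with 3 of them above 0, and 0.60 after the rescaling. Cd63, at 10:128900989-128912822 on the plus strand, encodes a tetraspanin of late endosomes, lysosomes and exosomes. Its levels in SAP were 33.4, 48.3 and 76.7 TPM, against 5.37, 5.72 and 7.03 TPM in control. The SAP mean of 53.4 ± 15.6 TPM was 8.98 times the control mean of 5.95 ± 0.626 TPM (SD, n = 6 each), a log2 difference of 2.93 ± 0.16 (SE; limma adjusted p = 2.46e-08). Even the lowest SAP library, SAP 13, lay well above every control library, and SAP 14 was the highest. Cd63 made up 6.00 to 15.2% of the summed TPM of the 5 membrane proteins in SAP libraries and 0.757 to 0.980% in control libraries. The pseudogene Cd63-ps reached at most 0.1 TPM in any library.

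The RefSeq promoter windows (GRCm38.p6) of Cd63, at chr10:128909095-128909394 (plus strand), and of Gm2a, at chr11:55097735-55098034 (plus strand), are shown whole because they belong to the members with the largest increase and the largest decrease; they were chosen after the values were seen. Neither holds CACGTG, so no base is capitalised.
Cd63: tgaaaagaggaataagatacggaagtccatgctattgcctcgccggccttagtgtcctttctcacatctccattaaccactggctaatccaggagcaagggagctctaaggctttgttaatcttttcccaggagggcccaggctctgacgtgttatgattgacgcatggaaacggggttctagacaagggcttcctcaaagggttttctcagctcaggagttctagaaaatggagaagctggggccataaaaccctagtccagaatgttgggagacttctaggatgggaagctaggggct
Gm2a: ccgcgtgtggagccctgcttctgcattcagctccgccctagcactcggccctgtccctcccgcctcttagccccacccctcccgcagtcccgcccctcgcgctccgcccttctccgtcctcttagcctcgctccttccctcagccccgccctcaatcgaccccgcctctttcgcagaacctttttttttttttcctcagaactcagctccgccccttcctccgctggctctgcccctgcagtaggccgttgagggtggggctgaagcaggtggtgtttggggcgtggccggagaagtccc

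Lamp1 and Lamp2 encode the main glycoproteins of the lysosomal membrane, and LAMP2A serves chaperone-mediated autophagy. Lamp1, at 8:13159161-13175338 on the plus strand, stood at 230.1, 259 and 292 TPM in SAP, against 354, 366 and 388 TPM in control, a difference of -0.50 ± 0.06 (SE; limma adjusted p = 1.76e-05). Lamp2, at X:38401357-38456454 on the minus strand, stood at 131, 181 and 192 TPM in SAP, against 252, 269 and 292 TPM in control, a difference of -0.62 ± 0.09 (SE; limma adjusted p = 8.24e-05). For both, every SAP library lay below every control library. After the rescaling Lamp2 stayed lower at -0.21, while Lamp1, at -0.09, did not pass the threshold (limma adjusted p = 0.106).

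Scarb2, a lysosomal membrane glycoprotein gene, differed by 0.20 ± 0.09 (SE; limma adjusted p = 0.0871), and Mcoln1, the lysosomal calcium channel gene, by 0.27 ± 0.11 (SE; limma adjusted p = 0.0547). Under the 3 other scalings both were called higher, at 0.24 to 0.60 for Scarb2 and 0.32 to 0.67 for Mcoln1. Without SAP 14 Scarb2 passed the threshold (0.26; limma adjusted p = 0.00729), and Mcoln1 passed it without SAP 13 (0.33), control 3 (0.32) or control 5 (0.34). Grn encodes progranulin, a secreted and lysosomal precursor protein; it stood at 102, 122 and 140.1 TPM in SAP, against 90.4, 104 and 107 TPM in control. Of the SAP libraries, 1 lay within the control range, and the difference was 0.27 ± 0.09 (SE; limma adjusted p = 0.0244), lost without SAP 10, SAP 11, control 4 or control 5 at 0.23 to 0.24.

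**Figure D3:**
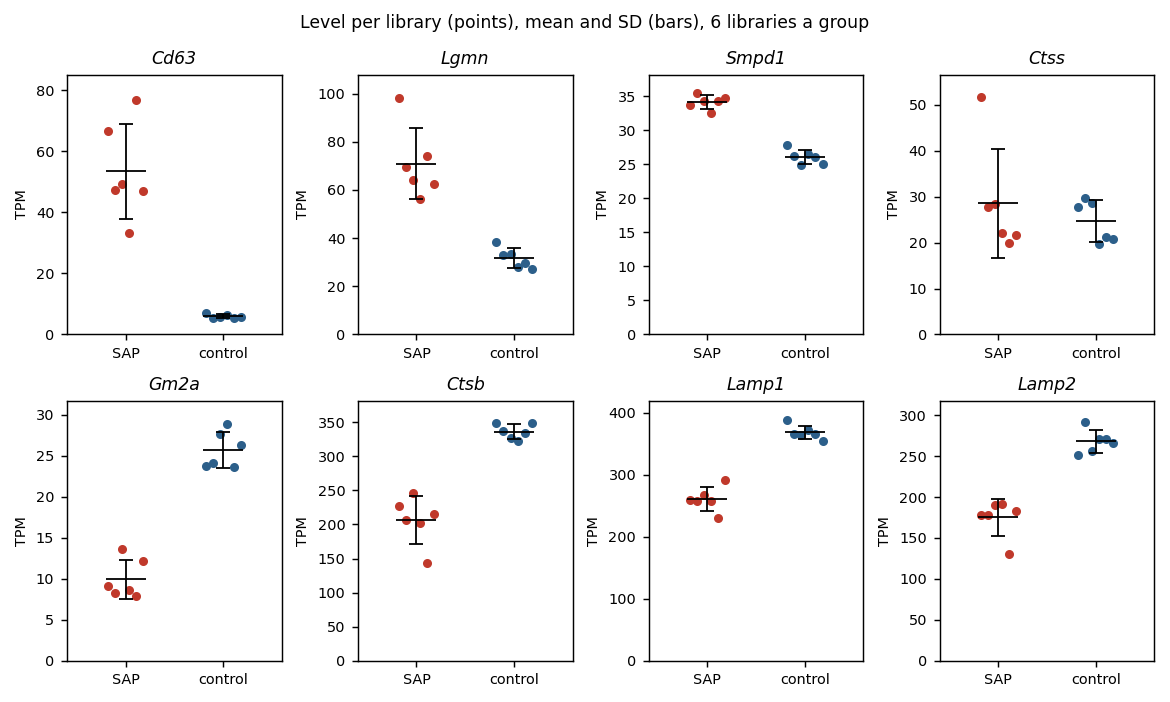
Level (TPM, axes from 0) of 8 lysosomal genes in each SAP (red) and control (blue) library, with the mean and SD of the 6 libraries of each group. Cd63, Lgmn and Smpd1 were higher without overlap, Gm2a, Ctsb, Lamp1 and Lamp2 lower without overlap (Lamp1 not past the threshold after the rescaling without acute-phase genes, whose all-gene median was 0.32), and Ctss was high in SAP 10 alone.

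Summed over each role as deposited, the transcripts of glycosidases and membrane proteins were separated between the groups while those of peptidases were not. The 12 peptidases summed to 1506 to 1881 TPM in SAP libraries, against 1676 to 1893 TPM in control libraries, overlapping widely. The 10 glycosidases summed to 128 to 176 TPM in SAP and 193 to 214 TPM in control, and the 5 membrane proteins to 505 to 596 TPM in SAP and 685 to 727 TPM in control. Lamp1 and Lamp2 made up most of the membrane protein sum, with control means of 368 and 268 TPM beside a mean sum of 707 TPM. The sums of the 7 lipid-handling genes met at the edge, at 304 to 424.4 TPM in SAP and 424.3 to 475 TPM in control. All 38 members together took 0.257 to 0.322% of all TPM in SAP and 0.316 to 0.343% in control. No sum under another scaling is given here, so these separations hold for the deposited scale only. After the rescaling without acute-phase genes, the median difference was 0.60 for membrane proteins and 0.18 for glycosidases, against 0.32 for all genes.

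**Figure D4:**
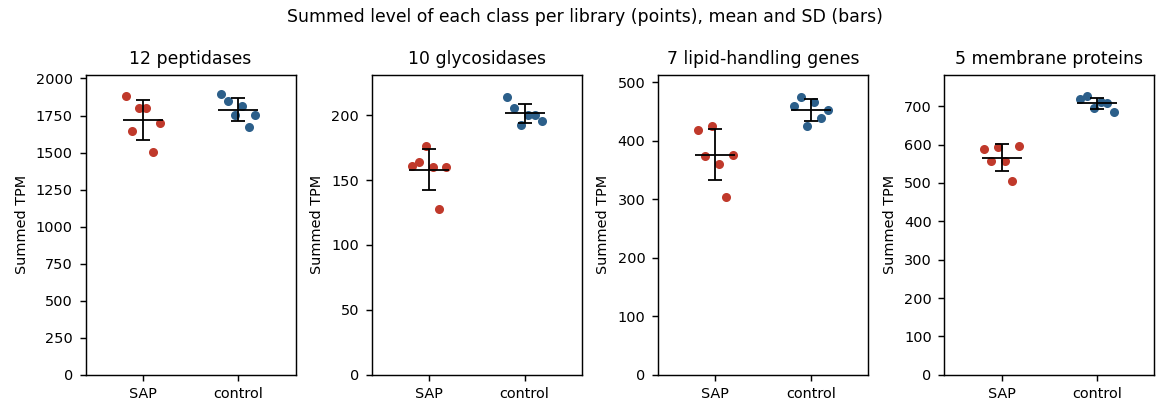
Summed TPM of the peptidases, glycosidases, lipid-handling genes and membrane proteins in each library (points; axes from 0), SAP left and control right, with mean and SD of 6 libraries. Glycosidase and membrane protein sums as deposited were lower in every SAP library than in any control library, and SAP 14 was the lowest library in all 4 sums. Sums under other scalings are not shown.

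Because TPM are shares of a common total, each difference was set beside 3 other scalings. The median of all genes was shifted by 0.04 under scaling factors like those of TMM, by 0.05 under quantile normalization and by 0.34 after the rescaling without acute-phase genes, so values under the last are best read against its all-gene median of 0.32. Against that median, the peptidase median of 0.48 and the membrane protein median of 0.60 were higher, and the glycosidase median of 0.18 and the lipid-handling median of 0.21 were lower. Under all 4 scalings, 7 members were called higher (Cd63, Lgmn, Ctsc, Neu1, Smpd1, Asah1 and Grn) and 5 lower (Gm2a, Man2b1, Ctsb, Fuca1 and Lamp2). The share of all genes meeting the same condition is not given here, so these counts have no background beside them. Another 5, Ctsa, Tpp1, Scarb2, Mcoln1 and Tfeb, did not pass the threshold as deposited but were higher under the 3 other scalings. A further 4 members, Ctsd, Ctsh, Gaa and Npc2, were called in opposite directions by different scalings.

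**Figure D5:**
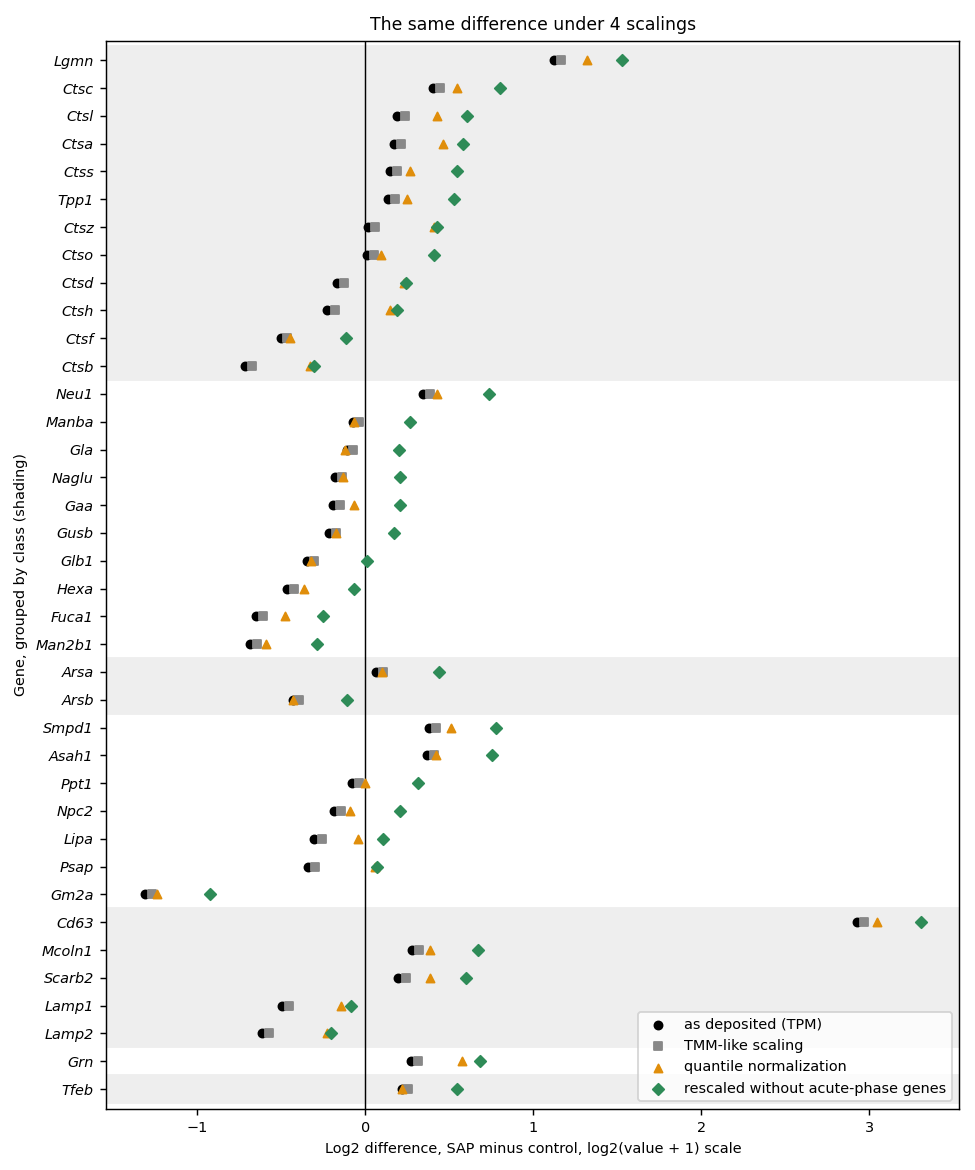
Log2 difference, SAP minus control, of the 38 genes as deposited (black circles), with scaling factors like those of TMM (grey squares), after quantile normalization (orange triangles) and after rescaling without acute-phase genes (green diamonds). Values move to the right under the last, whose all-gene median was 0.32, and Cd63, Lgmn and Gm2a kept their places at the ends.

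Libraries differed within groups as well. The coefficient of variation over 6 libraries had a median of 12.2% over members in SAP and 8.17% in control, and was larger in SAP for 33 of the 38. SAP 14 was the lowest SAP library for 30 of the 38 members, with a median deviation of -0.25 (log2) from its group mean, against -0.20 over all genes; it also had the highest acute-phase share. SAP 12 was the highest SAP library for 22 members. Without SAP 14, 10 members were higher and 13 lower, against 21.6% and 22.9% of all genes.

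Xist, the RNA of the inactive X chromosome, divided the libraries: 2 SAP (SAP 10 and SAP 12) and 5 control libraries held 49.1 to 60.7 TPM, and 4 SAP libraries and control 5 held 4.59 to 17.1 TPM. Among the high Xist libraries alone, 11 members were higher and 7 lower, against 18.0% and 16.1% of all genes; with the split as a term in the fit, 10 were higher and 11 lower, against 20.5% and 19.4% of all genes. The calls on 8 lower members were lost among the high Xist libraries, at -0.34 for Arsb, -0.31 for Glb1, -0.29 for Hexa, -0.19 for Psap, -0.14 for Gaa, -0.10 for Ctsh, -0.09 for Ctsd and -0.03 for Npc2. Ctsa (0.31), Tpp1 (0.31), Scarb2 (0.35) and Mcoln1 (0.48) passed the threshold as higher there. The low side had 1 control library, so no value was computed within it. Cd63, Lgmn, Neu1, Smpd1 and Asah1 stayed higher and Gm2a, Man2b1, Ctsb, Fuca1 and Lamp2 stayed lower under all 24 alternatives, these included. How many of all genes kept their call in this way is not given here.

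Markers of other liver cells were also read. Immune cells are known to express lysosomal genes, and their part in the results of the members was not tested. Of 12 Kupffer cell markers, Marco and Clec1b were higher, 3 were lower (Clec4f among them) and 7 did not pass the threshold. No Kupffer cell marker was called lower after the rescaling, among the high Xist libraries or with the Xist term. The call on Clec1b was also lost among the high Xist libraries (0.73) and with the Xist term (0.53). The 12 Kupffer cell markers summed to 227 to 500.0 TPM in SAP libraries and 253 to 378 TPM in control libraries. Marco alone gave 34.1 to 76.6 TPM of these sums in SAP and 0.43 to 1.52 TPM in control. No sum without Marco is given here, so the overlap of the sums holds with Marco included. SAP 10, the highest library for Ctss and Lgmn, had the largest sum, and SAP 14, the highest library for Cd63, had the smallest. Neutrophil markers (3 of 4 tested higher, of 10 listed; S100a9, S100a8 and Retnlg) summed to 36.6 to 112 TPM in SAP and 5.23 to 20.1 TPM in control. Monocyte markers (4 of 5 tested higher and 1 lower, of 9 listed; Plac8, Itgam and Fn1 with the smallest p) summed to 636 to 891 TPM in SAP and 377 to 427 TPM in control, and without Fn1 to 60.9 to 97.5 TPM in SAP and 42.6 to 63.4 TPM in control.

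Hepatocyte markers, which check the tissue, were abundant, at 52508 to 59855 summed TPM in SAP and 82073 to 94306 in control; 2 of 9 were higher (Fgb among them) and 6 lower (Cps1 and Serpina1c among them). Among 9 sinusoidal endothelial markers 4 were higher (Lyve1, Stab1 and Pecam1 first) and 1 lower, among 8 stellate cell markers 5 were higher (Col1a1 and Rgs5 among them) and 1 lower (Reln), and of 8 lymphocyte markers only Gzma was tested and was higher. Of 6 cholangiocyte markers, Krt19 and Spp1 were tested and neither passed the threshold. None of 8 pancreatic acinar markers passed the filter, and their sum reached 1.02 TPM in SAP and 12.0 TPM in control 8, while the other control libraries were at 0.47 to 1.33 TPM. No marker of any of these lists was at 0 in every library.

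Beyond the 38 members, 78 of 88 other lysosomal genes were tested, of which 10 were higher, 13 lower and 55 not past the threshold, with a median of 0.01; as deposited, both shares, 12.8% and 16.7%, were below the background, but the higher share was 35.9% under quantile normalization and 76.9% after the rescaling, above the 26.2% and 55.3% of all genes. The proton pump gave 4 higher and 1 lower of 15 V-ATPase subunits, led by Atp6v0e (0.45 ± 0.06 SE), Atp6ap2 (0.44 ± 0.07 SE) and Atp6v0d1 (0.41 ± 0.06 SE). Among 25 other hydrolases 2 were higher and 4 lower; Smpdl3a, an acid sphingomyelinase-like phosphodiesterase, differed by -0.75 ± 0.09 (SE), and Ctse, the aspartic protease cathepsin E, by -1.17 ± 0.15 (SE). Among 15 other membrane proteins and transporters 3 were higher, including Laptm4a (0.37 ± 0.06 SE) and Ostm1 (0.37 ± 0.08 SE), and 2 lower, including Laptm4b (-0.40 ± 0.09 SE), whose call was lost after the rescaling (-0.02) and among the high Xist libraries (-0.25). Of 9 sorting genes 1 was lower, Gnptg of the mannose 6-phosphate pathway (-0.17 ± 0.06 SE; 0.22 after the rescaling), while Ap1g1 (-0.22 ± 0.09 SE) and M6pr (0.11 ± 0.05 SE) did not pass the threshold as deposited. M6pr was called higher under quantile normalization (0.32) and after the rescaling (0.52). Ap1g1 was called lower with scaling factors like those of TMM (-0.17). Of the cathepsin inhibitors 2 of 7 were tested: Cst3, cystatin C, was lower as deposited (-0.21 ± 0.06 SE) but 0.19 under quantile normalization and 0.20 after the rescaling, and Cstb, cystatin B, differed by 0.11 ± 0.06 (SE). Cstb did not pass the threshold as deposited and was called higher under quantile normalization (0.42) and after the rescaling (0.52).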

How the data were processed

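The authors deposited 1 table of liver RNA-seq values with 55487 rows and 12 sample columns, all used and 0 left out. No header or label names the unit; values were read as TPM because each deposited column summed to 993412 to 995793 with no common step. edgeR is listed in the submitters' processing notes, with no version or role. The sources used here do not give the aligner, genome build, annotation or use of strand. Depth is unknown from such values, so no counting interval was computed, and no count test was run.

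A linear model with the group as its only term was fitted to log2(TPM + 1) in limma 3.58.1 (R 4.3.3), using a mean-variance trend. Of all genes, 11344 reached 1 TPM in 6 or more of the 12 libraries and were kept, and two-sided p-values were adjusted with Benjamini-Hochberg at 0.05. The script was tested on simulated data. Of rows sharing a symbol (120 repeats), the one with the highest median was used. Strand being unknown, 16 of the 38 members, 8 of them called, could share reads with an overlapping annotated gene. Positions are from GENCODE M21 (GRCm38) and promoter windows from RefSeq (GRCm38.p6).

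Members and lists were chosen with earlier results of these data known. Every member was named; levels were given, per role, for up to 4 called members with the smallest adjusted p and the 2 most abundant, and other lists by up to 3 genes with the smallest adjusted p. Values of 1 gene that this rule names are not reported here. No protein sequence was printed. Alternatives were scaling factors like those of TMM, quantile normalization, rescaling without 30 acute-phase genes, dropping the filter, a minimum mean of 5 TPM, a pseudocount of 0.1, limma without trend or with a robust step, the highest mean for repeated symbols, a term for the Xist split, only the high Xist libraries, leaving out SAP 14 and control 5 together, and leaving out each library. Figures were drawn with matplotlib 3.10.9 and tables made with pandas 2.3.3.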

Additional observations from a re-analysis of the deposited data

Results flagged for a closer look

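Single libraries stood apart from the other 5 of their group by Dixon's criterion (gap over range above 0.625) in 5 of 76 combinations of member and group, where chance gives about 1 in 20. Of these, 3 were low values of SAP 14: Ctsf read 9.97 TPM there, whereas the rest of that group lay at 12.5 to 13.6 TPM, Gaa 22.5 TPM, against 27.1 to 29.6 TPM, and Lamp2 131 TPM, against 178 to 192 TPM. Ctss read 51.6 TPM in SAP 10, whereas the rest of its group lay at 19.8 to 28.4 TPM. Among controls, Ctso read 23.2 TPM in control 3, against 19.4 to 20.5 TPM in the others.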

How the results depend on the processing

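No paired analysis was possible because SAP 10 to 15 and control 3 to 8 share no replicate number. The number of members called higher, 7 as reported, was 12 with scaling factors like those of TMM, 16 under quantile normalization, 23 after the rescaling without acute-phase genes, and 11 both without SAP 14 and control 5 and among the high Xist libraries; leaving out 1 library gave 5 to 10. The number called lower, 15 as reported, was 5 after the rescaling and 7 among the high Xist libraries, and 12 to 17 with 1 library left out. Beside these, the share of all genes called higher was 23.4% with the TMM-like factors and 26.2% under quantile normalization. It was 55.3% after the rescaling and 18.0% among the high Xist libraries. The share of all genes called lower was 22.7% under quantile normalization, 10.7% after the rescaling and 16.1% among the high Xist libraries. No such share is given here for the fit without SAP 14 and control 5. Of the other lysosomal genes, 28 were higher and 8 lower under quantile normalization, 60 and 4 after the rescaling, and 7 lower among the high Xist libraries, with 7 to 11 higher and 12 to 15 lower over single omissions. Of all genes, 6253 were higher and 1215 lower after the rescaling, 1830 lower among the high Xist libraries, and 1955 to 2453 higher and 2536 to 3063 lower over single omissions. The rescaling raises every other gene by construction in libraries with a large acute-phase share, and the high Xist fit has fewer libraries; the cause of the other changes was not tested.

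Differences that changed sign were, under quantile normalization, Ctsd 0.23, Ctsh 0.15, Psap 0.0564 and Cst3 0.19; after the rescaling, Ctsd 0.24, Ctsh 0.19, Gaa 0.21, Gla 0.20, Glb1 0.00995, Gusb 0.17, Manba 0.27, Naglu 0.20, Ppt1 0.31, Lipa 0.10, Psap 0.0703, Npc2 0.21, Lamtor1 0.15, Gnptg 0.22, Ap1g1 0.18 and Cst3 0.20; among the high Xist libraries, Manba 0.0871 and Ppt1 0.0323; and with the Xist term, Manba 0.0278. Over single omissions Ctso ran between -0.0202 and 0.0728, Ctss between -0.0337 and 0.23, Ctsz between -0.0109 and 0.0371 and the marker Spp1 between -0.0140 and 0.27. Without known depth, differences in members under about 5 TPM (Gla, Manba, Arsb, Tfeb) carry an unknown counting error. The test for count data was not run because the values are TPM.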
